A study of Rattus norvegicus with 92 samples.

Results

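The data compared 2 regions of the rat brain, the hypothalamus and the hippocampus, in animals that breathed air. The 6 hypothalamus and 6 hippocampus libraries of the air group were taken by their tissue and treatment labels, and make up 12 of the 92 samples of the study. All animals were adult male Wistar-Kyoto rats, an inbred strain, held in nose-only inhalation tubes for 4 h at 0 ppm acrolein and necropsied after the exposure. The same regions of rats exposed to 3.16 ppm acrolein for 4 h, a further 12 libraries, served here as samples that the air comparison had not used. The labels number the libraries without saying whether a number marks an animal, so p-values measure the spread between these libraries.

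The hypothalamus is a small region at the base of the brain that holds many distinct groups of neurons, among them the neuroendocrine cells whose peptides control the pituitary, feeding, body temperature and the stress response. The hippocampus is a folded cortical structure built of a few large, densely packed populations of excitatory neurons with scattered inhibitory ones, and is known for its part in memory and in feedback on the stress hormone axis. Both share the glia, blood vessels and general neuronal machinery of the brain. In whole tissue, fewer cells of a type and less RNA per cell cannot be told apart.

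Each library was described by the same 20508 Ensembl identifiers, of which 19719 name transcripts and 789 name genes; all are called transcripts below. The tables do not pair them with gene symbols, and the reference table used here gives no Ensembl identifiers, so no match was possible. The regions could therefore not be checked against named marker genes, and the text gives the pattern over all transcripts and the identifiers of 4. Recovered read totals ran from 13481150 to 18469744 in hypothalamus and from 13199359 to 21658491 in hippocampus, and 17915 to 19141 transcripts had a read in a library.

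Some libraries stood apart within their region. Transcripts restricted to 1 of the 6 other tissues of the study were chosen without any brain value, and their median level in each brain library was read in ppm of the level in that tissue. The 321 liver transcripts were at 6960 ppm of the liver level in hippocampus replicate 2 and at 24.1 to 120 ppm in the other 5 hippocampus libraries, while the 6 hypothalamus libraries had a median of 96 and a highest value of 133 ppm. The same hippocampus library had the 188 muscle transcripts at 33800 ppm, against 1410 to 5750 ppm in the others, and the 55 nasal transcripts at 18400 ppm, against 1160 to 3660 ppm. Hippocampus replicate 7 had the 33 lung transcripts at 8150 ppm, against 2210 to 3770 ppm in the others of its region. For these transcripts hypothalamus replicate 7 was also the highest of its region, at 6140 ppm against 3130 to 4360 ppm. For the 34 adrenal transcripts the regions were at 3320 to 6240 ppm in hippocampus and 5260 to 7730 ppm in hypothalamus, and no library was separate.

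**Figure D1:**
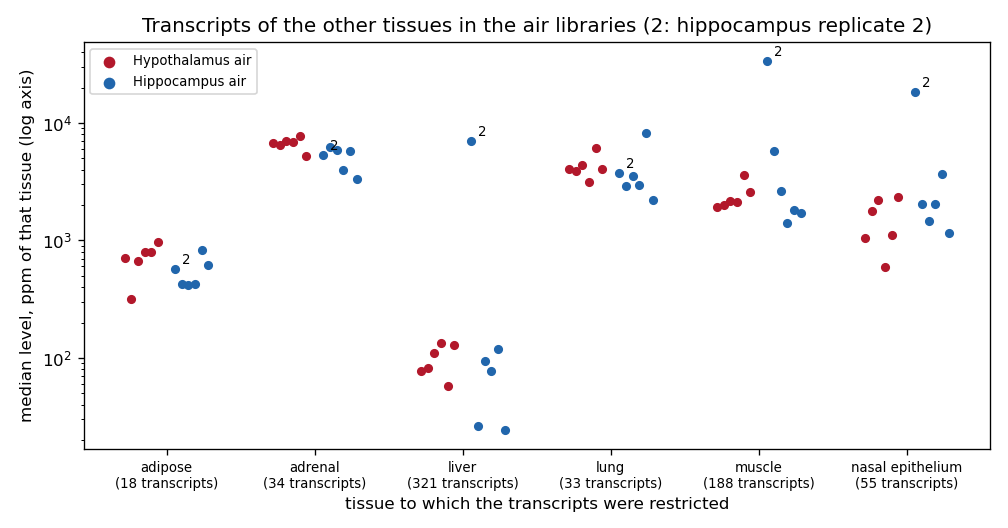
Each point is 1 air library; the y axis gives, on a log scale, the median level of transcripts restricted to the tissue on the x axis, in ppm of the level in that tissue. Hippocampus replicate 2, marked 2, is above the other 5 hippocampus libraries for liver, muscle and nasal transcripts.

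In hippocampus replicate 2, 239 transcripts had at least 50 normalized counts and over 8 times the highest value of the other hippocampus libraries. Of these, 129 were highest in liver, 63 in muscle and 42 in nasal epithelium. Hypothalamus replicate 6 had 69 transcripts of this kind, 21 of them highest in liver and 23 in muscle, and each of the remaining 10 libraries had at most 11. Of these, 9 of the 239 and 3 of the 69 entered the regional calls below, where 19.5% of all tested transcripts did; being high in 1 library of a region by choice, they had a large spread within it. Leaving out both libraries, an alternative chosen after seeing the data, gave 4184 called transcripts where all 12 libraries gave 3902, with 3345 in common.

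The regions were separated along the main axis of variation. The first principal component of the log2 values held 28.6% of the variance, and placed the 6 hypothalamus libraries from -68.3 to -47.7 and the 6 hippocampus libraries from 25.7 to 92.8. The second held 16.3% and set apart hippocampus replicate 2 at 104 and hypothalamus replicate 6 at 74.2, with the other 10 libraries from -46.1 to 18.2. The third held 12.7%, with hypothalamus replicate 6 at 96.1 and the next library at 48.5.

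Many transcripts differed between the regions. Of 20019 tested, 3902 (19.5%) were called, meaning a Benjamini-Hochberg adjusted p from limma no higher than 0.1 together with a fold over 1.2 in either direction. They were evenly divided, with 1973 higher in hypothalamus (9.86%) and 1929 higher in hippocampus (9.64%). The median log2 fold change, hypothalamus over hippocampus, was 1.1 in the first set and -1.03 in the second, and 0.03 over all tested transcripts. When libraries were instead scaled to the same total of reads, the median over all transcripts moved by 0.11 and the split became 2602 higher and 1462 lower in hypothalamus. The libraries of the regions did not overlap for 1722 transcripts, 8.6% of those tested, and 1698 of these were among the called.

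**Figure D2:**
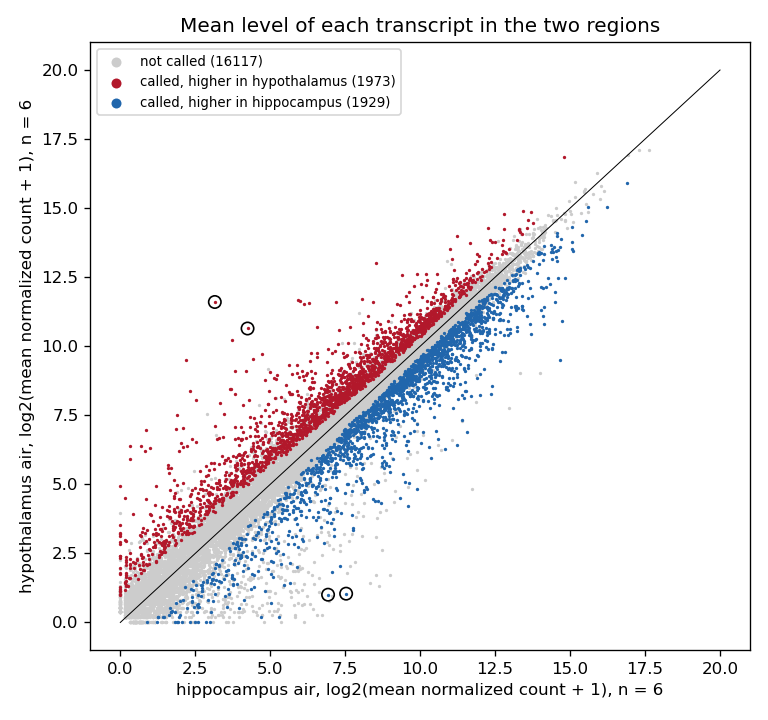
Each point is 1 transcript, with its mean over the 6 hippocampus air libraries on the x axis and over the 6 hypothalamus air libraries on the y axis, both as log2(mean normalized count + 1). Red and blue mark the 1973 and 1929 called transcripts, and circles the 4 named ones, which lie far from the diagonal of equal levels.

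A grey cloud of uncalled transcripts below the diagonal in that plot belonged mostly to 1 library. There were 89 uncalled transcripts whose mean was at least 16-fold higher in hippocampus, and 2 in the other direction. Hippocampus replicate 2 held the highest value of the region for 86 of the 89, and over 90% of the sum of the 6 libraries for 73. Among the 6 other tissues, 57 of the 89 were highest in liver and 24 in muscle.

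Large regional folds were rarer, and their split between the regions depended on the fit. At least 4-fold, 305 transcripts were higher in hypothalamus (1.52% of those tested) and 284 in hippocampus (1.42%). At 16-fold there were 40 and 23, and at 64-fold 8 and 2. Of the 4-fold sets, 222 of 305 and 246 of 284 had libraries that did not overlap, against 8.6% of all tested transcripts. The sets were chosen by fold and adjusted p in these same libraries, so these counts describe that choice. A pseudocount of 5 gave 182 and 227 at 4-fold, and 25 and 16 at 16-fold. The edgeR quasi-likelihood test gave 379 and 545 at 4-fold and 68 and 187 at 16-fold, and DESeq2 gave 328 and 379, and 61 and 56. Without hippocampus replicate 2 and hypothalamus replicate 6, edgeR gave 402 and 362 at 4-fold and 78 and 50 at 16-fold, so its hippocampal excess was not present without these libraries.

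**Figure D3:**
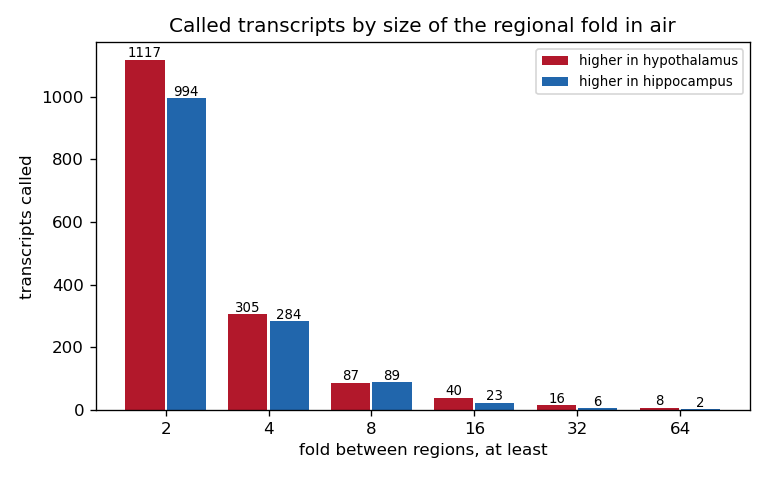
Bars give the number of called transcripts (y axis) whose fold between the regions in air was at least the value on the x axis, for each direction. With limma on log2(value + 1) they are 305 and 284 at 4-fold and 40 and 23 at 16-fold, and edgeR turns the order at both.

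The 2 sets differed in level. The median transcript of the 4-fold hippocampal set had a mean of 445 normalized counts in hippocampus, whereas that of the hypothalamic set had a mean of 102 in hypothalamus. A mean of at least 100 was reached by 205 of 284 hippocampal and 158 of 305 hypothalamic transcripts. The hippocampal set took 3.18 to 4.81% of all normalized counts in hippocampus libraries and 0.637 to 0.778% in hypothalamus libraries. The hypothalamic set took 1.72 to 2.55% in hypothalamus and 0.298 to 0.492% in hippocampus. These sets were chosen in the same libraries, so the shares describe them. In the acrolein libraries, which had no part in the choice, the hippocampal set took 2.41 to 4.67% and 0.651 to 0.762%, and the hypothalamic set 1.85 to 2.72% and 0.255 to 0.838%. In each of these 4 cases the regions were apart.

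To show how far common RNAs differed, the most abundant 4-fold transcript of each region was taken among those without overlap in air. The gap between the regions in air was thus part of the choice. The hypothalamic transcript ran from 88100 to 174000 normalized counts in hypothalamus, with a median of 107000. In hippocampus it ran from 18700 to 34800, with a median of 30500. Its log2 fold change was 2.02 ± 0.24 (SE; limma, adjusted p = 3.76e-05). The hippocampal transcript ran from 12600 to 51800 in hippocampus and from 2730 to 11900 in hypothalamus. Its log2 fold change was -2.4 ± 0.35 (limma, adjusted p = 0.000266). In the acrolein libraries, the log2 fold change was 1.7 for the hypothalamic and -1.73 for the hippocampal transcript (limma, adjusted p = 0.0189 and 0.00227). Most abundant RNAs were nevertheless shared. Of the 100 with the highest mean in each region, 63 were in both lists. In their own region, 19 of the hypothalamic and 43 of the hippocampal 100 were called higher, against 9.86% and 9.64% of all tested transcripts. The lists were ranked by the means of these same libraries, which favours transcripts higher there, so the counts describe that choice. The difference between the 2 counts was not tested.

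Named transcripts were those of largest fold in each direction among called transcripts with a mean of at least 100 in the higher region and no overlap. ENSRNOT00000095213 was at 801, 2940, 740, 7700, 2410 and 4050 normalized counts in hypothalamus replicates 1, 3, 5, 6, 7 and 8. It was at 0.84, 2.58, 6.72, 9.85, 20.2 and 7.08 in hippocampus replicates 2, 4, 5, 6, 7 and 8. Every hypothalamus library was far above every hippocampus library, although the hypothalamus libraries themselves were widely spread. The means were 3110 ± 2590 and 7.89 ± 6.88 (SD, n = 6), and the log2 fold change was 8.38 ± 0.63 (SE; limma, adjusted p = 9.51e-07).

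ENSRNOT00000013910 was at 2710, 2050, 2070, 986, 566 and 1200 in the hypothalamus libraries, in the same order. In hippocampus it was at 1.68, 6.44, 1.12, 7.16, 87 and 4.25, so replicate 7 was above the other 5. Its log2 fold change of 7.58 ± 0.73 (limma, adjusted p = 6.44e-06) became 8.28 without hippocampus replicate 7.

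ENSRNOT00000090868 was at 65.5, 358, 54.9, 118, 284 and 222 in hippocampus replicates 2, 4, 5, 6, 7 and 8. In hypothalamus it was at 0, 0, 3.45, 0, 1.18 and 1.73, from 0 to 4 reads, and the groups were well apart. The log2 fold change was -6.41 ± 0.54 (limma, adjusted p = 2.58e-06).

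ENSRNOT00000105407 was at 36.1, 232, 183, 96.7, 148 and 29.8 in hippocampus. In hypothalamus replicate 5 it was at 6.03, from 7 reads, and in the other 5 hypothalamus libraries it had 0 reads. Its log2 fold change was -6.09 ± 0.62 (limma, adjusted p = 9.6e-06). For both hippocampal transcripts, the size of the fold rests on a few reads in hypothalamus and moves with the pseudocount.

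**Figure D4:**
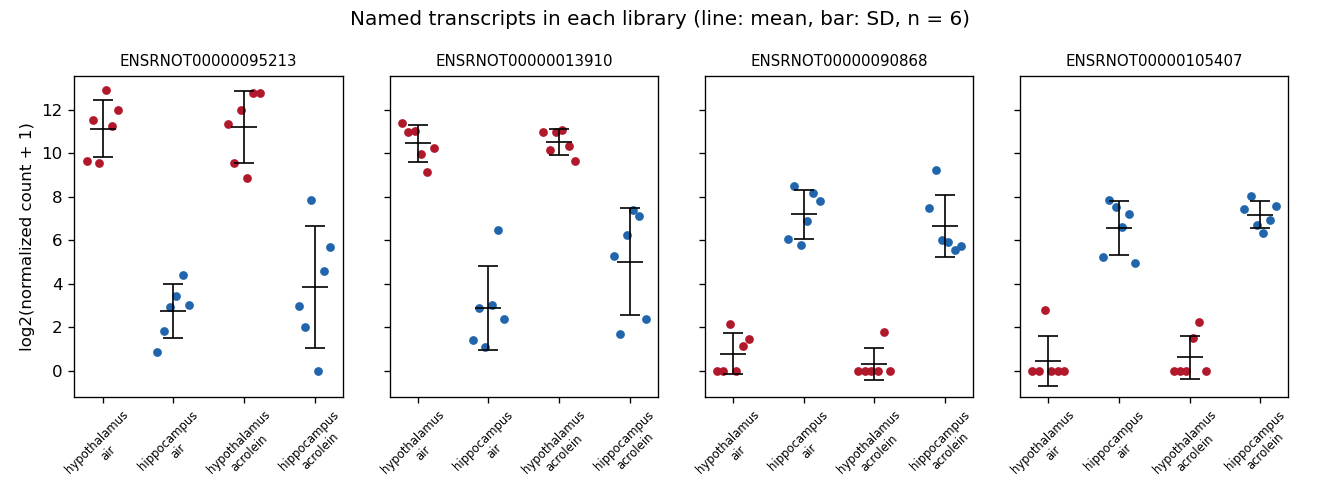
Points are single libraries, with the log2(normalized count + 1) of each named transcript on the y axis and the region and exposure on the x axis; the line and bar are the mean and SD of the 6 libraries. In air, no overlap was a condition of the choice. In acrolein, the regions do not overlap for any of the 4.

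Among the next 10 transcripts by fold in each direction, log2 fold changes ran from 5.63 to 7.51 on the hypothalamic side and from -5.85 to -4.52 on the hippocampal side, and the highest adjusted p (limma) was 0.000137 and 0.000761. The transcript ranked 3 for hypothalamus was the steadiest of the leading 3, at 733 ± 171 against 3.56 ± 2.66 (SD, n = 6). The transcript ranked 6 for hippocampus was the most abundant of the leading 12, at 26200 ± 9360 there and 720 ± 430 in hypothalamus.

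The leading transcripts of each region were also read in the other region. Called transcripts of at least 16-fold, with at least 200 normalized counts and no overlap, were chosen in the acrolein libraries, 13 for each region. They were read in the air libraries as a median share of their mean level in the region where they are high. The 13 hypothalamic transcripts were at 0.32, 0.547, 2, 0.799, 5.08 and 0.511% in hippocampus replicates 2, 4, 5, 6, 7 and 8. The 13 hippocampal transcripts were at 3.77, 2.65, 5.91, 2.94, 3.83 and 3.13% in hypothalamus replicates 1, 3, 5, 6, 7 and 8. The ranges overlapped and were not tested against each other, and hippocampus replicate 7 and hypothalamus replicate 5 were the highest of their regions. In the regions where the transcripts are high, levels ran from 56.6 to 143% of the mean in hypothalamus and from 66.6 to 123% in hippocampus. Whether tissue of 1 region was present in samples of the other was not tested.

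Transcripts limited to 1 region at this depth were few and low. With a floor of 3 reads in every library of the other region, 99 called transcripts were limited to hypothalamus and 58 to hippocampus. A mean of at least 10 normalized counts was reached by 13 of the 99 and 12 of the 58, and the highest means were 124 in hypothalamus and 49.7 in hippocampus. A count at the floor covers counting error only and does not show that a transcript is absent.

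The spread between libraries of a region was also described. Over the 11700 transcripts with a mean of at least 100 in a region, the median SD on the log2 scale was 0.37 in hypothalamus and 0.36 in hippocampus. For the 158 hypothalamic 4-fold transcripts of that level it was 0.51 in hypothalamus and 0.79 in hippocampus. For the 205 hippocampal ones it was 0.53 in hippocampus and 0.49 in hypothalamus. In the region where a transcript is low the SD also holds counting error, and these differences were not tested.

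The regional contrast was then fitted in the 12 acrolein libraries on their own. There, 2263 of 19937 transcripts were called (11.4%), with 1043 higher in hypothalamus (5.23%) and 1220 higher in hippocampus (6.12%). Of the 1973 transcripts higher in hypothalamus in air, 881 (44.7%) were called in that direction in acrolein, and of the 1929 higher in hippocampus, 1069 (55.4%). None was called in the opposite direction. For the 4-fold sets the counts were 239 of 305 (78.4%) and 261 of 284 (91.9%). Their median log2 fold changes were 2.55 in air and 2.08 in acrolein for the hypothalamic set, and -2.57 and -2.47 for the hippocampal set. The sets were chosen by their fold in air, so the air medians hold that choice and the acrolein medians do not. Across the 19822 transcripts tested in both, the log2 fold changes correlated with Pearson's r = 0.817 and Spearman's rho = 0.716, a description over transcripts, which are not independent replicates.

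**Figure D5:**
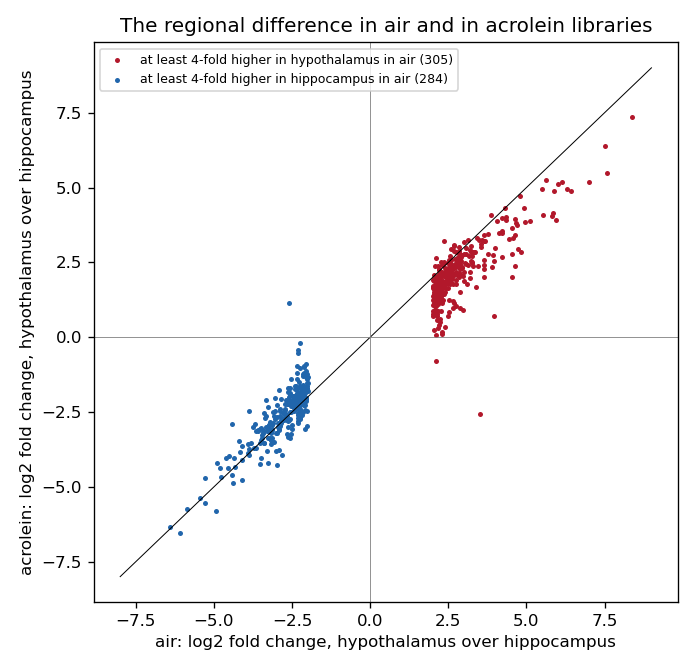
Each point is 1 of the 305 hypothalamic (red) or 284 hippocampal (blue) transcripts of at least 4-fold in air, with its log2 fold change in air on the x axis and in acrolein on the y axis; the diagonal marks equal values. All but 3 have the same sign in both, and the leading hypothalamic ones lie below the diagonal. The transcripts were chosen by their fold in air, so a smaller fold in acrolein can follow from the choice.

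The named transcripts kept their direction in acrolein. ENSRNOT00000095213 ran from 463 to 7100 normalized counts in hypothalamus and from 0 to 227 in hippocampus, a log2 fold change of 7.37 ± 1.1 (limma, adjusted p = 0.00051). ENSRNOT00000013910 ran from 790 to 2120 and from 2.25 to 169, a log2 fold change of 5.5 ± 0.85 (limma, adjusted p = 0.000698). ENSRNOT00000090868 and ENSRNOT00000105407 had log2 fold changes of -6.36 ± 0.6 and -6.55 ± 0.47 (limma, adjusted p = 1.16e-05 and 1.44e-06). The regions did not overlap for any of the 4. Of the next 10 in each direction, 10 hypothalamic and 10 hippocampal transcripts were called in the same direction, and 10 and 9 had no overlap. Over all transcripts tested in acrolein, 5.23% were called higher in hypothalamus and 6.12% higher in hippocampus. The share of all transcripts without overlap is given for air only, where it was 8.6%.

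The test of the difference between the 2 exposures found no transcript. Of 20195 tested over all 24 libraries, 0 passed an adjusted p of 0.1 for the region by exposure term (limma), and 232 (1.15%) had an unadjusted p under 0.05. The count was also 0 by edgeR, where 425 had an unadjusted p of that size, and by DESeq2, where 223 did. With evenly spread p-values, a share of 0.05 would be under that limit, more than the 1.15% found by limma. Why small p-values were this few was not tested. The 0 calls do not show that the regional difference was equal in the 2 exposures. For ENSRNOT00000013910 the fold in acrolein was lower by 2.08 on the log2 scale (limma, unadjusted p = 0.0986, adjusted p = 1). The terms of ENSRNOT00000095213, ENSRNOT00000090868 and ENSRNOT00000105407 were -1.02, 0.09 and -0.42. All 4 were named by their fold in air, so a smaller fold in acrolein can follow from the choice. In air, 24 called hypothalamic transcripts were at least 16-fold, with at least 200 normalized counts and no overlap. These 24 were at a median of 1.46 to 12.5% of their hypothalamic level in the acrolein hippocampus libraries. The 15 hippocampal transcripts chosen the same way were at 2.85 to 3.59% in the acrolein hypothalamus libraries. These sets were chosen in other libraries than the sets of 13 read in air, so levels were not compared between the exposures. Because the choice was made in air, no test was run on these levels.

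Beyond the brain, the 4-fold sets were followed in the other tissues. For this, the air libraries of all 8 tissues were scaled together, from tables that had been normalized separately. Of the 20019 tested transcripts, 69.3% (liver) to 79.6% (nasal epithelium) had a mean of at least 10 in a given other tissue. For the 305 hypothalamic transcripts this was 31.1% in liver, 39.3% in adipose, 40% in muscle, 48.9% in lung, 49.2% in adrenal and 62% in nasal epithelium. For the 284 hippocampal ones it was 47.9% in liver, 60.2% in adipose, 60.9% in muscle, 66.9% in lung, 60.2% in adrenal and 73.9% in nasal epithelium. Both sets were below all tested transcripts in each of the 6 tissues, and the hypothalamic set was the lower of the 2. These differences were not tested, and the hypothalamic set also had the lower level in brain, as given above.

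A level under a 20th of the brain level in all 6 other tissues was seen for 36 of the 305 (11.8%) and 42 of the 284 (14.8%), and for 2.23% of all tested transcripts. A higher mean in some other tissue than in either brain region was seen for 143 (46.9%) and 114 (40.1%), and for 73.4% of all tested transcripts. The other tissue of highest level was nasal epithelium for 31.5% and adrenal for 23% of the hypothalamic set, for 27.8% and 13% of the hippocampal set, and for 20.5% and 14.9% of all tested transcripts. The 4 named transcripts differed in this. ENSRNOT00000095213 had a mean of 2532.1 in hypothalamus and at most 20.4 in another tissue than the 2 regions, and ENSRNOT00000013910 had 1309.4 and at most 16.5. ENSRNOT00000090868 was at 148.2 in hippocampus and 530.4 in lung. ENSRNOT00000105407 was at 98 in hippocampus and 198.8 in liver. In hippocampus replicate 2, where liver transcripts were high, ENSRNOT00000105407 was at 36.1 and only replicate 8 was lower. In hippocampus replicate 7, where lung transcripts were high, ENSRNOT00000090868 was at 284 and only replicate 4 was higher. Whether RNA of another tissue added to these values was not tested.

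Set against all pairs of tissues, the 2 brain regions were close. Among transcripts with a mean of at least 100 in either, 410 of 11116 (3.69%) differed by at least 4-fold between hippocampus and hypothalamus. Of the 28 pairs of tissues this was the lowest share, and the next was 16.3% between lung and nasal epithelium. The highest was 41% between hippocampus and liver. Spearman's rho across transcripts was 0.904 for the brain regions and 0.686 for lung and nasal epithelium. These are descriptions of group means with no test.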

How the data were processed

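mRNA libraries of the tissues were sequenced on a NextSeq 500, and per the submitters' notes the authors used Partek, the rat genome rn7, R 4.1.3 and DESeq2. The deposited values, 1 table per tissue, are a signal, in which the authors had scaled read counts by library size factors within the table. Whole reads were recovered by dividing each hypothalamus or hippocampus column by its smallest non-zero value, and 100% of values came out whole within 0.01 of a read. Pairs of libraries of a group differed by more than sampling noise, with the lowest chi-square per degree of freedom at 9.978.

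The 12 air libraries were scaled together with median-of-ratios size factors (DESeq2 1.42.0). Regions were compared with limma 3.58.1 (R 4.3.3, with a trend), on log2(value + 1), so folds of low transcripts are understated. Transcripts needed a value above 0 in at least 2 libraries. As alternatives, DESeq2 and edgeR 4.0.16 were run on these reads, and an adjusted p that DESeq2 gave as NA stayed NA. Other tissues entered as deposited values rescaled together, with the pair of adipose libraries numbered 8 averaged as 1. Restricted transcripts had a mean of at least 1000 in 1 tissue and under a 20th of it in the other 5. The functions were tested on simulated reads. Gene lists and cell type markers planned by symbol were not computed, since no symbols could be paired, and no sequences are printed. The members, lists and rules were chosen with earlier results of these data known. Depth limits what can be said of transcripts with few reads, and floors cover counting error only.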

Additional observations from a re-analysis of the deposited data

Results flagged for a closer look

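In 48 groups of 6 libraries, the gap of the highest or lowest library to its neighbour was compared with the range of the group. In 14 groups the gap passed the 95% limit of Dixon's test. That limit assumes normally distributed values, which was not checked here, so no rate by chance is given. Groups in which all but 1 library were at 0 pass whatever the value. Values of a group that came from the same library are not independent of each other.

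Of the 14, 9 were in 4 libraries of the air comparison. Hippocampus replicate 2 was far above the other 5 for liver transcripts (6960 ppm against 24.1 to 120), muscle transcripts (33800 against 1410 to 5750 ppm) and nasal transcripts (18400 against 1160 to 3660 ppm). Hippocampus replicate 7 was above the others for lung transcripts (8150 against 2210 to 3770 ppm), for the 13 hypothalamic transcripts (5.08% against 0.32 to 2%) and for ENSRNOT00000013910 (87 against 1.12 to 7.16 normalized counts). Hypothalamus replicate 5 was above the others for the 13 hippocampal transcripts (5.91% against 2.65 to 3.83%) and for ENSRNOT00000105407 (6.03 normalized counts against 0). Hypothalamus replicate 6 had the fewest transcripts with a read, 18085 against 18661 to 18938.

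In the acrolein libraries, ENSRNOT00000095213 was at 227 normalized counts in hippocampus replicate 11, against 0 to 50.9, and the same library had muscle transcripts at 8370 ppm against 1540 to 2280. ENSRNOT00000090868 was at 596 in hippocampus replicate 10, against 45.8 to 179, and at 2.47 in hypothalamus replicate 14, against 0. Liver transcripts were at 299 ppm in hypothalamus replicate 10, against 69.4 to 134 ppm.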

How the results depend on the processing

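The count of transcripts called in air was within 1.5 times of 3902 under 28 of 30 alternatives, and the log2 fold changes of the 4 named transcripts kept their sign and call under all 30. The exceptions used only the 8 air libraries whose number both regions carry. They gave 1544 calls with the replicate block (739 higher and 805 lower in hypothalamus) and 2157 without it (1024 and 1133). Calls were thus fewer without the block too. How many libraries were left out and which ones they were cannot be told apart here. Whether the numbers pair the libraries could not be told from the values. Deviations from the group means correlated at 0.276, -0.091, 0.06 and 0.057 for numbers 5, 6, 7 and 8. Of these, only number 5 correlated best with its own. In acrolein the 6 values ran from -0.445 to 0.264, and only number 9 correlated best with its own. A low correlation does not show that libraries of a number came from different animals. With the block, acrolein gave 1426 calls in place of 2263, 573 transcripts were called at 4-fold in air in place of 589, and the exposure difference still had 0. The cause of the smaller acrolein count was not tested. Leaving out 1 library gave 3147 to 4412 calls in air (1531 to 2258 higher and 1576 to 2154 lower in hypothalamus), 563 to 634 at 4-fold, 1739 to 2831 in acrolein and 0 for the exposure difference. At 4-fold, edgeR gave 924 in place of 589, with 543 in common, and 764 without hippocampus replicate 2 and hypothalamus replicate 6. At 16-fold, limma gave 63, edgeR 255, and edgeR without these libraries 128; the settings at 16- and 64-fold, and edgeR without these libraries, were chosen after seeing the data. A pseudocount of 5 gave 409, and moved the log2 fold change of ENSRNOT00000105407 to -4.13, where 0.1 gave -8.87. Scaling to the same total made 64% of calls higher in hypothalamus, where 50.6% were with median-of-ratios factors. Leaving out hippocampus replicates 2 and 7 and hypothalamus replicate 6, chosen after seeing the data, gave 4013 calls and 649 at 4-fold.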

Other observations

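Of the 4-fold transcripts, 3 had the opposite sign in the acrolein libraries. They were picked by that sign, so their region by exposure terms and unadjusted p describe the choice and are no test of it. One was at 0 to 309 normalized counts in hypothalamus and 0 to 15.2 in hippocampus in air, and at 0 to 13.8 and 0 to 470 in acrolein, so each of the 4 groups reached 0. Its region by exposure term was -6.07 on the log2 scale (limma, unadjusted p = 0.00473, adjusted p = 1). Another was at 0 to 43.4 in hypothalamus and 16.8 to 70.8 in hippocampus in air. In acrolein it was at 2.94 to 88.3 and 0 to 75.4, and its term was 3.76 (limma, unadjusted p = 0.0149, adjusted p = 1). The last was at 10.6 to 34 in hypothalamus and 0 to 11.3 in hippocampus in air. In acrolein it was at 0 to 30.3 and 3.12 to 16.4, and its term was -2.88 (limma, unadjusted p = 0.0105, adjusted p = 1).

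Of the 782 gene identifiers tested, 77 (9.85%) were called in air, and of the 19237 transcript identifiers 3825 (19.9%); the difference was not tested.

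Deviations from the group means, over the 15957 transcripts with a mean of at least 10, moved together in some libraries of different numbers. Hypothalamus replicates 1 and 3 correlated at 0.708, and hippocampus replicate 4 correlated with them at 0.468 and 0.389. The next pair, hypothalamus replicates 5 and 7, was at 0.312. The labels name no batch for these libraries.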
